A study of Mus musculus with 4 samples.

Results

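The genes described here encode the voltage-gated calcium channels, the voltage-gated sodium channels, the HCN pacemaker channels and the sodium leak channel NALCN, with their auxiliary subunits. They were chosen by gene symbol alone, as array probesets that the platform annotation gives exactly 1 gene symbol beginning with Cacna, Cacnb or Cacng, or equal to an Scn alpha or beta subunit symbol, an Hcn symbol or Nalcn. This gave 43 of the 41345 probesets in the table and 40 of its 22180 genes, 37 with 1 probeset each and 3 (Cacnb2, Cacnb4 and Cacng2) with 2. Probeset 17371281, which is annotated to both Scn9a and Gm13629, falls outside this rule and was left out of all counts and fits.

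The tissue was the mouse suprachiasmatic nucleus (SCN), the seat of the master circadian clock in the hypothalamus, cut out by laser microdissection. Hypophysectomized mice, whose pituitary had been removed (HPX), and control mice (non-HPX) were each sampled at Zeitgeber time (ZT) 2, early in the day, and ZT14, early in the night, under 12 h of light and 12 h of dark. Each of the 4 groups is 1 array of pooled tissue: the design text gives pools of 10 animals at each time, without saying whether that means 10 per surgical state. The labels enter HPX under genotype; strain, age, sex, how the controls were treated and the time since surgery are not stated in the labels. Values are log2 expression values, on which a difference of 1 is a doubling of signal and 0.38 is 1.3-fold.

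SCN neurons fire action potentials faster by day than by night even when isolated, and this daily change in firing is the clock's electrical output. Sodium channel alpha subunits carry the spike, NALCN carries a steady depolarizing sodium leak, HCN channels carry an inward current that opens on hyperpolarization, low-threshold Cav3 (T-type) channels open near rest, Cav1 (L-type) channels couple depolarization to calcium entry and gene expression, and Cav2 (P/Q-, N- and R-type) channels trigger transmitter release. The alpha2delta and beta subunits bring calcium channel pores to the membrane, whereas most Cacng genes of the brain encode transmembrane AMPA receptor regulatory proteins (TARPs), which traffic and gate glutamate receptors.

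Upstream sequence is shown for Cacna2d3 and Cacng2, the channel-family genes with the largest day-night differences shared by both surgical states, and a short stretch for Scn1a, whose window alone held the D-box letters bound by PAR bZIP clock output factors. All sequences are from RefSeq, assembly GRCm38.p6, written 5′ to 3′ along the gene. For Cacna2d3 and Cacng2 they are the 250 bases before the annotated start, at chr14:29721865-29722114 and chr15:78119281-78119530, both on the minus strand, and capitals mark GC boxes. For Scn1a, at chr2:66440813-66440842 on the minus strand, capitals mark the D-box and the ROR half-site.
Cacna2d3: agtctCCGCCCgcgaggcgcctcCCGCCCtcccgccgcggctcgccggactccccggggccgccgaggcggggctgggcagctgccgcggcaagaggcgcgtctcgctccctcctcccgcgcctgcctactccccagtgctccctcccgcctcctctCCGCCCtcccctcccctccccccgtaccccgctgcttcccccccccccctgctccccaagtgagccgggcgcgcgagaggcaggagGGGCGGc
Cacng2: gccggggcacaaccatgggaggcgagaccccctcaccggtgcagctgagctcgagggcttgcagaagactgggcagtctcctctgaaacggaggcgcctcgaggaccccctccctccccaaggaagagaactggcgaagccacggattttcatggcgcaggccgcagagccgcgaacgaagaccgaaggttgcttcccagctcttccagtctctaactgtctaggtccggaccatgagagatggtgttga
Scn1a: tcaTTATGTAAgtctgtctAGGTCAagtgt

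Promoter windows of 300 bases, 250 before and 50 after a start, were found for 31 of the 40 genes, 41 windows in all. On either strand, the E-box letters CACGTG were in 0 of the 41 windows, against 7.15% of all 32851 windows of that length. The cyclic AMP response element TGACGTCA was in 0, against 1.79%. The D-box TTATGTAA was in 1 (Scn1a, first base at -2 from the start), against 0.938%, and the ROR half-site AGGTCA in 5 windows (Cacna1f, Cacng8, Hcn2, Scn1a and Scn8a), 12.2% against 16.3%. The GC box GGGCGG was in 16 windows, 39.0% against 35.7%. No match of one motif overlapped a match of another. The stretch before the start of Cacna2d3 is 80.0% G and C with 4 GC boxes, and that of Cacng2 is 62.0% with 0; the median over the channel windows was 56.8% and over all windows 52.4%. These are matches of letters, not binding sites.

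All 12 SCN neuron markers (Avp, Vip, Nms, Grp, Prok2, Vipr2, Six3, Six6, Lhx1, Rorb, Rgs16 and Zfhx3) were expressed, that is, their highest value reached the floor of 6.02, the median over all genes of the highest of their 4 values. Of these, Prok2 lay below the floor on both ZT14 arrays, at 5.45 in non-HPX and 5.61 in HPX. Markers of other cells were present too: 9 of 9 oligodendrocyte, 6 of 6 astrocyte, 6 of 6 vessel, 3 of 5 microglial and 4 of 8 other hypothalamic neuron markers were expressed. Of the choroid plexus and ependymal markers, Foxj1 was expressed and Ttr and Folr1 were below the floor. In bulk tissue like this, fewer cells of a type and less RNA per cell cannot be told apart. The HPX array at ZT2 had the narrowest spread of values over probesets (SD 2.027, against 2.051 to 2.064 on the others).

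Of the 40 channel genes, 30 were expressed. The 10 below the floor were the retinal and muscle L-type pores Cacna1f and Cacna1s, the T-type pore Cacna1h, Cacna2d4, Cacng1, the muscle channel's gamma subunit, Cacng6, the pacemaker channel Hcn4, the sensory neuron sodium channels Scn10a and Scn11a, and the sodium channel beta subunit Scn4b. Hcn4 and Cacna1h came closest to the floor, with highest values of 5.99 and 5.96. The lowest of the expressed genes was Scn7a, an atypical sodium channel gene, at 6.27 (non-HPX ZT2), 6.18 (non-HPX ZT14), 6.30 (HPX ZT2) and 6.17 (HPX ZT14).

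The channel genes varied little over the 4 arrays. The gap between a gene's highest and lowest array had a median of 0.27 over the 30 genes, from 0.05 for Scn2a to 0.63 for Cacng5, against 0.24 over all 11090 expressed genes. With 1 array per group, differences between pairs of groups have no replicate check and are given as sizes. Tests come from an additive limma fit of time and surgery to all 4 arrays and all expressed genes, two-sided, with Benjamini-Hochberg adjustment over all of them and a threshold of 0.05. That fit has 1 residual degree of freedom, which is the interaction itself, so its standard errors (SE), 0.11 to 0.16 for these genes, are mostly set by the prior that limma estimates over the whole table.

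In the additive fit 0 of the 30 channel genes passed for time of day, against 0.541% of all expressed genes. At an unadjusted p under 0.05 stood 4 of the 30 (13.3%), namely Cacna2d3, Cacng2, Cacna1e and Cacna1a, against 8.21% of all expressed genes. For surgery 0 passed, against 0.135%, and 0 had an unadjusted p under 0.05, against 4.68%. The 95% interval of the time effect lay wholly within 1.3-fold either way for 17 of the 30 genes, and that of the surgery effect for 20. The same count was not made over all expressed genes, so it is not read as a trait of the channel genes.

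Cacna2d3, the alpha2delta-3 subunit gene, had the largest day-night difference that was alike in both surgical states. It stood at 8.96 at ZT2 and 8.51 at ZT14 in non-HPX, and at 8.84 and 8.39 in HPX. Both ZT14 arrays were below both ZT2 arrays, by 0.45 without surgery (1.36-fold) and 0.46 after it (1.37-fold). It was the only one of the 30 at least 1.3-fold lower at night in both states, where 0.839% of all expressed genes were, and no channel gene was 1.3-fold higher in both, against 0.55%. The limma estimate was -0.45 ± 0.11 (SE; 95% interval -0.70 to -0.20), with an adjusted p of 0.195. The other alpha2delta genes did not share the difference: Cacna2d1 was higher at night by 0.08 and 0.19, and Cacna2d2 differed by -0.17 and 0.07.

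Cacng2, which encodes stargazin, the first TARP described, differed in the opposite direction. Its gene value was 6.81 at ZT2 and 7.14 at ZT14 in non-HPX, and 6.78 and 7.23 in HPX, so both night arrays were above both day arrays. The fit gave 0.39 ± 0.11 (SE; 95% interval 0.14 to 0.64; limma adjusted p = 0.294). Its probesets agreed in the direction of the night change but not in its size. Probeset 17318923 was higher at night by 0.33 in non-HPX and 0.69 in HPX, and probeset 17312697 by 0.33 and 0.21. For HPX at ZT2 they disagreed in sign, at -0.31 on 17318923 and 0.25 on 17312697. Probeset 17312697 was the dimmer, between 5.88 and 6.34, and lay below the floor in non-HPX at ZT2.

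All 3 Cav2 pore genes were higher at night in both states, as were 2902 of all 11090 expressed genes. Cacna1a, the P/Q-type pore, stood at 7.88 and 8.14 in non-HPX and 7.85 and 8.11 in HPX, 0.26 higher at night in each (limma 0.26 ± 0.11; adjusted p = 0.588). Cacna1e, the R-type pore, stood at 9.20 and 9.38 in non-HPX and 9.23 and 9.60 in HPX, so that its HPX night array was the highest (limma 0.27 ± 0.12; adjusted p = 0.578). Cacna1b, the N-type pore, was higher by 0.21 and 0.17 (limma adjusted p = 0.735). Both night arrays were above both day arrays for each of these genes, at sizes under 1.3-fold that did not pass the test.

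The Cav1 pores of the brain were nearly level. Cacna1c stood at 8.12 and 8.11 in non-HPX and 8.00 and 8.08 in HPX, all within 0.11, and the 95% interval of its time effect ran from -0.22 to 0.28. Cacna1d stood at 8.39 and 8.44 in non-HPX and 8.29 and 8.45 in HPX, with an interval of -0.15 to 0.36. Neither interval reached 1.3-fold. Their widths are mostly set by the prior, and they cover only the time effect averaged over the surgical states, so they do not exclude a larger difference.

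Among the T-type pores, Cacna1g was highest in day non-HPX tissue, at 8.26, and stood at 8.00, 8.02 and 7.98 on the other arrays (non-HPX ZT14, HPX ZT2 and HPX ZT14). Nalcn was likewise highest in day non-HPX tissue, at 9.55, and stood at 9.28, 9.38 and 9.34 on the others in the same order. It was 0.28 lower at night in non-HPX and 0.04 lower in HPX, and limma gave -0.16 for time (95% interval -0.42 to 0.10; adjusted p = 0.837). Cacna1i stood at 6.80 and 6.84 in non-HPX against 6.48 and 6.68 in HPX. Both HPX arrays of Cacna1i were below both non-HPX arrays, and the surgery effect was -0.24 ± 0.11 (95% interval -0.50 to 0.02; limma adjusted p = 1).

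**Figure D1:**
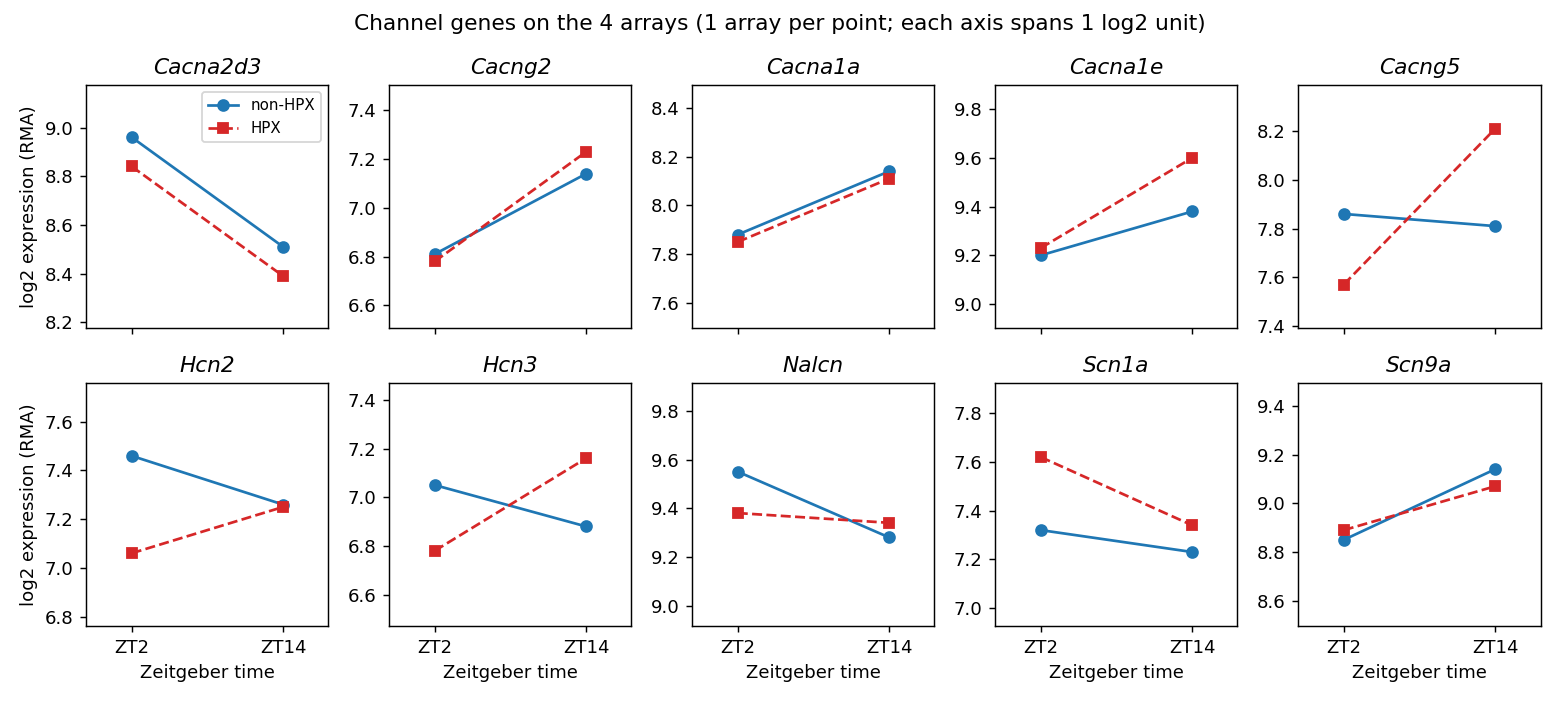
Log2 expression of 10 channel genes against Zeitgeber time, 1 array per point, circles and solid lines for non-HPX and squares and dashed lines for HPX; each vertical axis spans 1 log2 unit, with its own origin. The lines of Cacna2d3 run down in parallel and those of Cacng2 and Cacna1a run up, while those of Cacng5, Hcn2 and Hcn3 run in opposite directions in the surgical states.

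The beta subunits, which bind the pore inside the cell, showed small differences. Cacnb4 was lower at night by 0.20 in non-HPX and 0.23 in HPX (limma adjusted p = 0.667), but its probesets disagreed in size. Probeset 17370799 was lower by 0.39 and 0.35, at 6.11 and 5.99 by day and at 5.72 and 5.65 at night, of which only 6.11 reached the floor, whereas the brighter 17385281 was lower by 0.02 and 0.11. Cacnb1 was lower at night by 0.11 in non-HPX and higher by 0.19 in HPX. Cacnb2 differed by -0.14 and 0.16, but its second probeset, 17381906, lay below the floor on all arrays, and probeset 17367163 alone gave -0.02 and 0.06.

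Sodium channel alpha subunits were split by time. Scn9a, the gene of Nav1.7, stood at 8.85 and 9.14 in non-HPX and 8.89 and 9.07 in HPX, higher at night by 0.30 and 0.19 (limma 0.24 ± 0.11; adjusted p = 0.616). The left-out probeset shared by Scn9a and Gm13629 was lower at night, at 6.11 and 6.06 in non-HPX and 6.30 and 5.85 in HPX. Scn1a, the gene of Nav1.1, was lower at night in both states, at 7.32 and 7.23 in non-HPX and 7.62 and 7.34 in HPX. Of the 30 expressed channel genes it had the largest positive HPX difference at ZT2 (0.30), and both HPX arrays were above both non-HPX arrays, with a surgery effect of 0.20 ± 0.12 (limma adjusted p = 1). Scn2a, the gene of Nav1.2, was the flattest of the 30, between 9.65 and 9.70 on all arrays. Scn3a stood at 8.83 and 9.01 in non-HPX and 8.98 and 8.91 in HPX, and Scn8a, the gene of Nav1.6, at 8.06, 8.10, 8.13 and 8.29 in the same order, highest in HPX at night. In the RefSeq gene table Scn3a, Scn2a, Scn1a, Scn9a and Scn7a lie in 1 stretch of a chromosome; their night changes in non-HPX ran from -0.10 (Scn7a) to 0.30 (Scn9a).

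**Figure D2:**
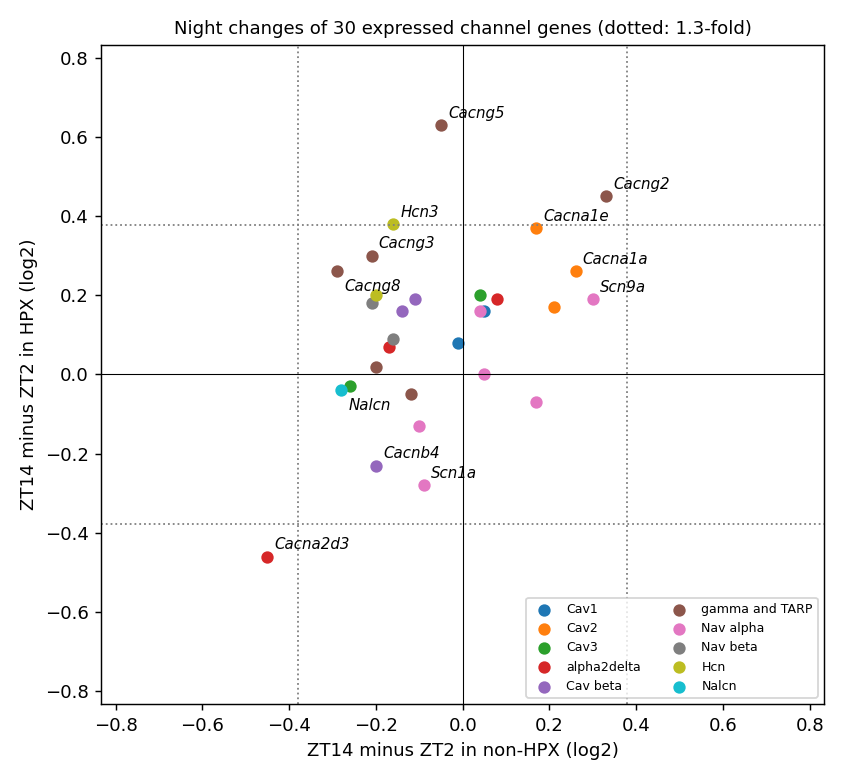
Night change (ZT14 minus ZT2, log2) in HPX against that in non-HPX for the 30 expressed channel genes, 1 point per gene coloured by role; dotted lines mark 1.3-fold. Cacna2d3 alone lies past the dotted lines in both states, and 16 of the 30 genes have the same sign in both.

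State by state, Cacna2d3 was the only 1 of the 30 channel genes at least 1.3-fold apart between night and day in non-HPX, 3.33% of them against 4.72% of all expressed genes. In HPX there were 4 of 30 (13.3%), with Cacng5, Cacng2 and Hcn3 higher and Cacna2d3 lower, against 8.81%. Counts this near the shares over all genes are not read as a result about the channel genes. The signs of the night changes agreed between the states for 16 of 30 genes, 9 higher and 7 lower, against 51.6% of all expressed genes. The median night change over the 30 genes was -0.11 in non-HPX, where that of all expressed genes was -0.03, and 0.16 in HPX, where it was 0.04. In non-HPX 19 of 30 were lower at night (57.9% of all expressed genes) and in HPX 21 of 30 were higher (58.6%).

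HPX was then set against non-HPX at each time. At ZT2, 1 of 30 channel genes, Hcn2, was at least 1.3-fold apart, against 5.21% of all expressed genes; at ZT14 it was 1, Cacng5, against 3.23%. None was 1.3-fold apart the same way at both times, where 0.117% of all expressed genes were higher and 0.514% lower. The comparisons at ZT2 and in HPX share the HPX array at ZT2, so their values are not independent. The 30 genes had a median of -0.12 at ZT2 (-0.06 over all expressed genes) and 0.02 at ZT14 (0.01).

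At ZT2 the sodium channel pores and the other channel genes lay on opposite sides. All 6 expressed sodium channel alpha genes were higher in HPX, from 0.00 (Scn2a) to 0.30 (Scn1a) with a median of 0.06, whereas 23 of the other 24 channel genes were lower, with a median of -0.17; Cacna1e, at 0.03, was the exception. Cacng2 is counted as lower by its gene value of -0.03, although its probesets had opposite signs. Over all expressed genes 65.6% were lower. After cyclic loess scaling the 6 alpha genes were again all higher, from 0.03 to 0.35, and 22 of the other 24 were lower. The median over all expressed genes was then -0.02. With the brightest probeset per gene all 6 alpha genes were higher and 22 of the other 24 lower, with a median over all expressed genes of -0.06. Without the expression floor the split was less sharp, with 7 of 8 alpha genes higher and 24 of 32 others lower. There the median over all genes was -0.01. The share of all genes that were lower was not counted under these other settings, so their counts have no such share beside them. All 5 pan-neuronal markers were lower in HPX at ZT2 as well, from -0.39 (Tubb3) to -0.02 (Snap25). The 12 SCN neuron markers went both ways, from -0.47 (Avp) to 0.30 (Nms), with a median of -0.09. The 4 expressed markers of other hypothalamic neurons had a median of -0.68 at ZT2 and -0.78 at ZT14. Oxt was at -2.43 and -1.47, Th at -0.97 and -1.04, and Trh at -0.38 and -0.52. Hdc was at -0.1 and 0.27, higher in HPX at ZT14. The part of neuronal content, of tissue around the SCN, or of the narrower HPX array at ZT2 in these differences was not tested. The split was seen in the values and was not tested either. At ZT14, 4 of the 6 alpha genes were lower and 15 of the other 24 higher, against 53.2% higher over all expressed genes.

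**Figure D3:**
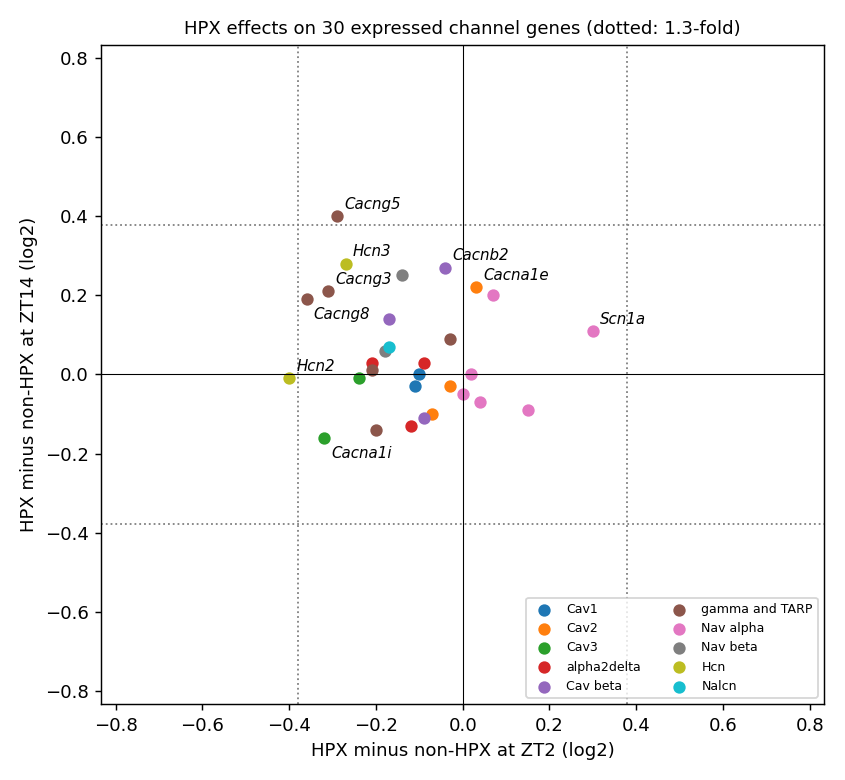
HPX minus non-HPX (log2) at ZT14 against the same difference at ZT2 for the 30 expressed channel genes, 1 point per gene coloured by role; dotted lines mark 1.3-fold. The Nav alpha points lie at or right of 0 on the ZT2 axis and nearly all others left of it, with Hcn2 lowest at -0.40, and Cacng5 is highest on the ZT14 axis at 0.40.

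Hcn2 and Hcn3 were the expressed pacemaker channel genes. Hcn2 stood at 7.46 at ZT2 and 7.26 at ZT14 in non-HPX, and at 7.06 and 7.25 in HPX. Its HPX day array was the lowest, 1.32-fold below non-HPX at ZT2, while the night arrays were 0.01 apart. Hcn3 stood at 7.05 and 6.88 in non-HPX and at 6.78 and 7.16 in HPX, so it was lower at night without surgery and higher at night after it. Neither passed for time (limma adjusted p = 1 and 0.939) or for surgery (1 for both).

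Cacng5 had the widest range of the 30. This TARP gene stood at 7.86 and 7.81 in non-HPX and at 7.57 and 8.21 in HPX. The non-HPX arrays were level, and the HPX arrays lay on either side of them: 0.29 lower at ZT2 and 0.40 higher at ZT14, a night change of 0.63 (1.55-fold) in HPX alone. A night change of opposite sign in the surgical states was also seen for Cacng8, at 7.47 and 7.17 in non-HPX and 7.10 and 7.37 in HPX, and for Cacng3, at 7.41 and 7.20 against 7.10 and 7.41. At night both genes stood lower than by day in control tissue and higher in HPX tissue. Cacng7, the neighbour of Cacng8 on the chromosome, stood at 9.92 at ZT2 in non-HPX and between 9.71 and 9.73 on the other arrays. Cacng4 was 0.20 lower at ZT2 and 0.14 lower at ZT14 in HPX, at 8.40 and 8.28 in non-HPX against 8.20 and 8.14, with a surgery effect of -0.17 ± 0.11 (limma adjusted p = 1).

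The difference of the night changes, HPX minus non-HPX, was at least 1.3-fold for 6 of the 30 genes, against 14.7% of all expressed genes. All 6 were positive, as for 10.6% of all expressed genes: Cacng5 (0.68), Cacng8 (0.56), Hcn3 (0.55), Cacng3 (0.51), Scn3b (0.40) and Hcn2 (0.39). After cyclic loess scaling 4 of the 30 were past 1.3-fold, against 13.4% of all expressed genes, and Hcn2 was at 0.34, so the count is not read as a result about the channel genes. Scn3b, a sodium channel beta subunit, stood at 9.15 and 8.94 in non-HPX and 9.01 and 9.19 in HPX, and Scn2b, at 8.54, 8.38, 8.36 and 8.45 in the same order, gave 0.25. By role, the difference was positive for 6 of 6 expressed Cacng genes (median 0.37; 5 of 6 after cyclic loess), 2 of 2 Hcn genes and 1 of 6 sodium channel alpha genes (median -0.08). Cacng2, at 0.12, is counted there by its gene value, although its probesets had opposite signs. Over all 30 genes the difference was positive for 22, against 61.9% of all expressed genes, and the median was 0.14 against 0.07. The 5 pan-neuronal markers were also all positive, with a median of 0.28, and their part in this was not tested. With 1 array per group this difference has no residual left to test it with.

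**Figure D4:**
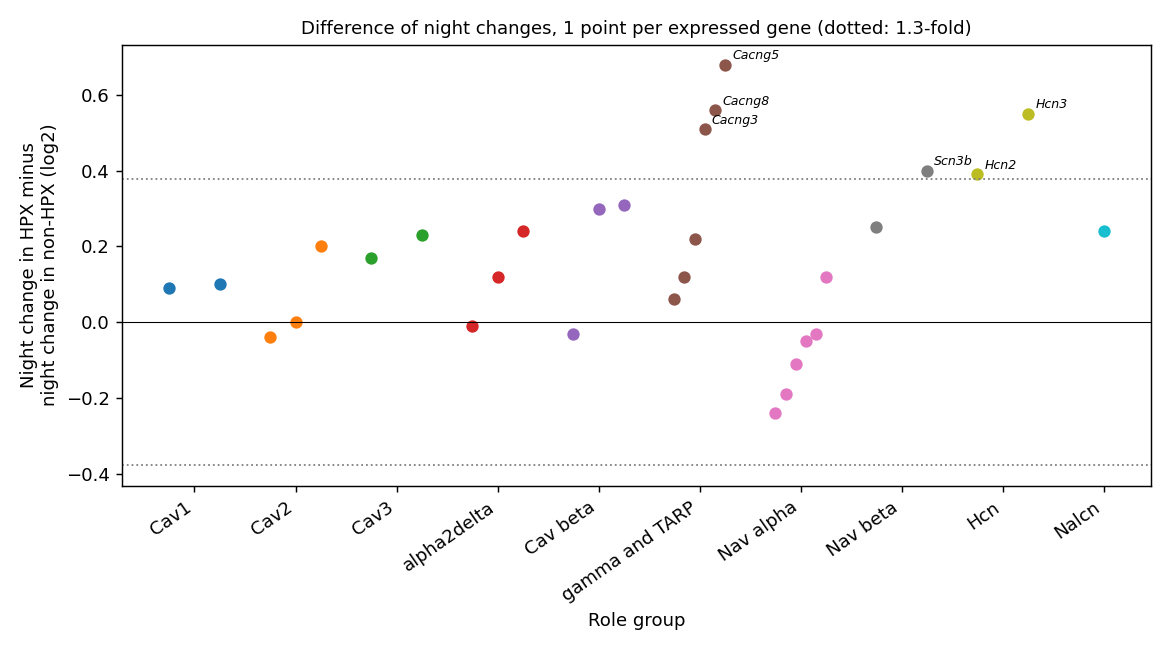
Night change in HPX minus night change in non-HPX (log2) for each expressed channel gene, 1 point per gene grouped by role; dotted lines mark 1.3-fold. The 6 named genes lie above the upper line, between 0.39 (Hcn2) and 0.68 (Cacng5), and 5 of 6 Nav alpha genes lie below 0.

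Genes that act with these channels were taken from 6 lists. Of 53 genes listed, 46 were measured and 34 expressed; 1 fell and 0 rose for time in the additive limma fit, where 0.541% of all expressed genes passed, and 3 had an unadjusted p under 0.05, against 8.21%. For surgery 0 passed, against 0.135%, and 0 had an unadjusted p under 0.05, against 4.68%. The gene that fell was Gem, which encodes a small GTPase of the RGK family that inhibits high-voltage-activated calcium channels by way of their beta subunits. Gem stood at 7.00 at ZT2 and 6.32 at ZT14 in non-HPX, and at 7.11 and 6.03 in HPX. Both night arrays were below both day arrays, by 0.68 and 1.08, and the limma estimate was -0.88 ± 0.13 (SE; adjusted p = 0.0158, and between 0.0155 and 0.513 under the other settings, the highest without the expression floor). Rrad, another RGK gene, stood at 6.70 and 5.85 in non-HPX and 6.38 and 6.18 in HPX, lower at night in both, with the non-HPX night array below the floor (limma -0.53 ± 0.15; adjusted p = 0.295).

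In the same list, Stac, an adaptor of L-type channels, stood at 5.67 and 6.11 in non-HPX and 6.23 and 5.87 in HPX, with opposite night changes of 0.43 and -0.36; its lower value in each state was below the floor. Rimbp2, which links Cav channels to release sites, was the other expressed member of this list, within 0.15 over the arrays. Of the HCN partners, Flna, an actin-binding scaffold, stood at 6.66 and 6.93 in non-HPX and 6.61 and 7.24 in HPX (limma 0.45 ± 0.13 for time; adjusted p = 0.272), and Pex5l differed by 0.04 and -0.19 at night.

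Of the NALCN complex subunits, Unc80 was higher at night by 0.17 and 0.20, Unc79 by 0.05 and 0.14, and Fam155a, the auxiliary subunit also called NALF1, differed by -0.12 and 0.09. None of these 3, of the 6 expressed sodium channel partners, of the 11 genes of calcium stores and extrusion or of the 8 calcium buffers and sensors passed for time or surgery, and none of these genes had an unadjusted p under 0.05. All 11 expressed store and extrusion genes were lower in HPX at ZT2, with a median of -0.19 and Slc8a1 nearest to level, at -0.0. The largest difference among them was that of the plasma membrane calcium pump gene Atp2b3, at -0.39. The endoplasmic reticulum pump gene Atp2a2 and the ryanodine receptor gene Ryr2 followed, both at -0.25. Of the measured genes of this list below the floor, Atp2a3 (0.7) and Ryr1 (0.15) were higher and Itpr3 (-0.16) was lower. Over all expressed genes 65.6% were lower in that comparison, as were the 5 pan-neuronal markers.

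**Figure D5:**
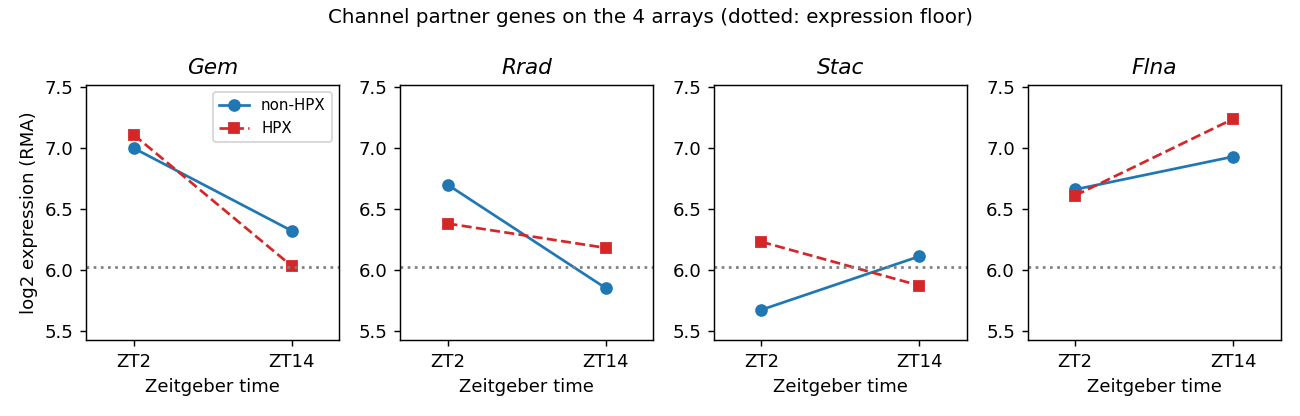
Log2 expression of Gem, Rrad, Stac and Flna against Zeitgeber time, 1 array per point, circles and solid lines for non-HPX and squares and dashed lines for HPX, with the expression floor of 6.02 dotted. Gem runs down in both surgical states, to 6.32 and 6.03 at ZT14, while the Stac lines cross.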

How the data were processed

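RNA was measured on 4 Affymetrix arrays, 1 per group. Per the submitters' processing notes, the authors deposited log2 values made with Affymetrix Expression Console and RMA, robust multi-array averaging, with no version stated. RMA gives the arrays a common distribution, which hides any change that most genes share. The number of arrays limits the precision. Probesets with 1 gene symbol in the platform annotation (23521) were averaged per gene; Entrez identifiers matched the RefSeq table (GRCm38.p6) for all 43 channel probesets and changed 0 symbols. Genes whose highest value reached 6.02, the median of that value over all genes, were kept. Time and surgery were fitted as additive terms with limma 3.58.1 (R 4.3.3; 8.772 prior degrees of freedom) and tested on simulated data; Python 3.11.15 did the rest. Alternatives were cyclic loess scaling, no floor, a stricter floor (7.459, the 75th percentile), the brightest probeset per gene and a fold of 1.5 in place of 1.3. All channel genes could be named; values on every array were to be given for those alike past 1.3-fold in both comparisons, past 1.5-fold in any, past the test or among the 3 highest or lowest of a comparison, and partner genes were named by the first 3 of these. Genes, lists, motifs and tests were chosen with earlier results of these data known. Fold changes are between log2 means of pools. The limma p-values rest on 1 residual degree of freedom from these arrays and mostly on the prior over the whole table. They do not measure a spread between replicate pools.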

Additional observations from a re-analysis of the deposited data

How the results depend on the processing

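No alternative changed the call of a channel gene in the additive limma fit: 0 passed for time or surgery under every one, although the count over all genes ran from 1 (no floor) to 72 (cyclic loess) for time, against 60, and from 0 (no floor) to 15 for surgery, against 15. Cacna2d3 had an adjusted limma p between 0.145 and 0.615 for time. Gem did not pass without the floor and was left out by the stricter floor. Without the floor, 3 of 40 channel genes were at least 1.3-fold apart for the night change in non-HPX, against 11.9% of all genes. For HPX at ZT2 there were 4 of 40, against 12.3%. Both counts were 1 of 30 in the main setting. After cyclic loess there were 0 of 30 for HPX at ZT2, against 4.43% of all expressed genes. Under the stricter floor 2 of 22 were past the fold for the night change in HPX, against 8.08%, where the main setting gave 4 of 30. At 1.5-fold there were 0 for the night change in non-HPX, 1 in HPX, 0 for HPX at ZT2, 0 at ZT14 and 1 for the difference of night changes. At 1.3-fold these were 1, 4, 1, 1 and 6. The shares of all expressed genes at 1.5-fold were 1.12%, 1.8%, 0.848%, 0.622% and 2.94% in the same order. These counts are not read as a result about the channel genes. All medians over the channel genes moved by less than 0.12, the median SD of the fit, which is about as large as most of these medians. For the night change in non-HPX the median went from -0.11 to -0.0 without the floor. There 20 of 40 channel genes were above 0 and 20 below, against 11 and 19 of 30 in the main setting. Of 160 single-gene values recomputed, 8 moved by more than that SD, all with the brightest probeset of Cacnb2, Cacnb4 or Cacng2. Cacng2 then differed by 0.69 in HPX at night and by -0.31 for HPX at ZT2. The labels number no replicates; the additive fit itself compares the times within surgical state and the surgical states within time.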
